A study of Homo sapiens with 8 samples.

Results

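LINC01564, LUCAT1 and NMRAL2P are 3 long noncoding RNA genes (lncRNAs, transcripts that are not translated into a known protein) whose RNA was higher after Z325 in both cell lines. They were selected by gene name, because LINC01564 and LUCAT1 had risen in both lines, so their fold changes are descriptions and carry no test. The 3 names correspond to 4 gene records among the 28043 genes of the HCT116 table and the 63241 genes of the NCI-H716 tables, which hold 8561 and 18852 lncRNA genes. Z325 (ZINC000101867325) is a small molecule that was selected by docking to the fibroblast growth factor receptors (FGFRs). RNA was sequenced from HCT116, an epithelial colorectal carcinoma line, and from NCI-H716, a colorectal carcinoma line with neuroendocrine features. There were 2 control and 2 Z325 libraries for each line, described as biological duplicates, and no other genotype or agent is named for any group. The labels give no dose, exposure time or vehicle for these libraries. The study's text sets 1 working concentration of Z325 for the experiments that follow its viability assay, dissolves Z325 in DMSO and names no exposure time for the sequenced cells.

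LUCAT1 was first described as a transcript induced by smoke and other stress in airway cells. It and NMRAL2P are known targets of NRF2, the transcription factor that is released from KEAP1 when cells meet oxidants or electrophiles and then binds antioxidant response elements. NMRAL2P is a pseudogene of NMRAL1, a protein that senses the NADPH state of the cell, and its transcript has been described as a coactivator for the NRF2 target NQO1. LINC01564, also named RAMS11, has been linked to metastatic colorectal cancer.

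The libraries of HCT116 held 13339282 and 13183792 counts in the controls and 13396225 in Z325 replicate 1, but 3434620 in Z325 replicate 2. In NCI-H716 the totals ran from 10210272 to 19738881. The HCT116 table ends on chromosome 9, so it covers part of the genome, and levels are compared within a line only. EPCAM, an epithelial surface protein, stood at 1423 to 1653 CPM (counts scaled to library size) in HCT116 and at 38.5 to 50.1 in NCI-H716, while the intestinal markers VIL1, GPA33, CDH17 and CDX1 stayed at or below 0.57 CPM in HCT116. In NCI-H716 the intestinal cadherin CDH17 reached 119 to 147 CPM and the neuroendocrine granule protein CHGA 92.6 to 109.7 CPM, with CDX1 at 0 in all 4 libraries. The 8 neuroendocrine markers together summed there to 930 to 1038 CPM in the controls and to 1190 to 1405 CPM after Z325. Of the 7 tested, 6 were higher and 1 lower, and none passed with edgeR. The 11 colorectal epithelium markers summed to 888 to 925 CPM in the controls and to 760 to 797 CPM after Z325. Of the 8 tested, 1 was higher and 7 lower, and none passed. The blood cell marker PTPRC stood at 0 to 0.312 CPM over the libraries of both lines. The 5 blood cell markers together summed to 3.02 to 4.06 CPM in the NCI-H716 controls and to 5.79 to 7.87 CPM after Z325, most of it the globin gene HBB (log2 fold change 1.39, SE 0.45, edgeR adjusted p = 0.184), and the part of this in the results was not tested. Of the stroma and endothelium markers, only COL3A1 in NCI-H716, at 243 to 353 CPM, was far from 0.

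LINC01564 (ENSG00000235899) lies on the forward strand at chr6:53616471-53707024 of hg38, and its exons cover 2258 bases in 11 GENCODE transcripts. LUCAT1 (ENSG00000248323) lies on the reverse strand at chr5:91054834-91314547, with 65 transcripts whose exons together cover 16558 bases. NMRAL2P is listed under 2 IDs. The record with counts (ENSG00000290862) lies on the forward strand at chr3:185959943-185980872, with 6 transcripts and 2628 exonic bases. The second record (ENSG00000171658), a transcribed unprocessed pseudogene at chr3:185960039-185979837, had 0 counts in all 8 libraries. All 891 of its exonic bases are shared with the first, 33.9% of that record's exons, so reads from the shared bases could not be assigned to it alone. Whether the counts of the first record include such reads was not checked in either line. Every value below for NMRAL2P is that of the first record. Stretches of 75 exonic bases that also occur in transcripts of another gene numbered 0 of 2540 for LINC01564, 0 of 2769 for NMRAL2P and 38 of 19343 (0.196%) for LUCAT1. Near-identical copies, NMRAL1 included, therefore held no complete 75-base match to NMRAL2P.

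The region around the start of each gene was read because the 3 RNAs were high in the same libraries. Windows of 300 bases, from 250 before to 50 after a RefSeq start (GRCh38.p14), matched 2 of the 3 members, LUCAT1 and LINC01564. Capital letters mark the stretch that holds an antioxidant response element core (TGACNNNGC) and an AP-1 site (TGACTCA), both searched on both strands. The LUCAT1 window is chr5:91314353-91314652 on the reverse strand and the first LINC01564 window is chr6:53628130-53628429 on the forward strand. The second LINC01564 window, chr6:53616464-53616763 on the forward strand of hg38, was placed around position 53616714, where 3 of its 11 GENCODE transcripts start and within 250 bases of which 10 of them start.
LUCAT1: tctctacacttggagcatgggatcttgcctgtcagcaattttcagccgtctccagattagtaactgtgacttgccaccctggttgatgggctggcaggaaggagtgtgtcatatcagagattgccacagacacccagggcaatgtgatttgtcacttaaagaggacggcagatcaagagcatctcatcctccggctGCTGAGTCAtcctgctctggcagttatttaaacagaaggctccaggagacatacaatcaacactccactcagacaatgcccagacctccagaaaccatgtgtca
LINC01564, RefSeq start: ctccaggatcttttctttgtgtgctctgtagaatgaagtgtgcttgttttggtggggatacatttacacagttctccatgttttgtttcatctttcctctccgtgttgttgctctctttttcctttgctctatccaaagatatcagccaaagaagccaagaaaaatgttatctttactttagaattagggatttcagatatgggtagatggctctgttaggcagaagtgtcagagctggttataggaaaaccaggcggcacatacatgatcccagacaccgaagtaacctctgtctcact
LINC01564, GENCODE start: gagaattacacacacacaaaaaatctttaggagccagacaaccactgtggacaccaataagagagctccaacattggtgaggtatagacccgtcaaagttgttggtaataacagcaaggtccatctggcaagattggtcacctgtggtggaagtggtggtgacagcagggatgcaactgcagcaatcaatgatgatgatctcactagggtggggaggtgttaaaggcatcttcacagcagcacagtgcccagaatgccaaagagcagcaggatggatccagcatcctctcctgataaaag
The LUCAT1 window held 1 antioxidant response element core, on the opposite strand and beginning 54 bases before the start, and it overlapped 1 AP-1 site. Among 35116 RefSeq windows, 13.3% held the antioxidant response element core and 4.95% the AP-1 site. The overlapping form of both (TGACTCAGC) was found in 0.561%. This form was not a search motif but is the one the LUCAT1 window holds, so its share is fitted to that hit. Neither LINC01564 window held either motif, which says only that these letters are not in these windows.

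Per length, LINC01564 was the most abundant of the 3 after Z325 in both lines. In HCT116 it had 10 and 19 counts in the controls and 383 and 124 in the Z325 libraries, where the second Z325 library is the shallow one. Scaled to library size with TMM factors (trimmed mean of M values), this was 0.723 and 1.46 CPM against 29.9 and 35.5 CPM. Both Z325 libraries stood far above both controls, and the shallow library gave the higher value. The mean rose from 1.09 ± 0.518 to 32.7 ± 3.93 CPM (SD, n = 2 each), and the fitted log2 fold change was 4.90 (SE 0.42). In these bulk libraries, more expressing cells and more RNA per cell cannot be told apart.

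In NCI-H716, LINC01564 had 47 and 33 rounded expected counts in the controls and 433 and 540 after Z325. The scaled levels were 3.55 and 3.19 CPM in the controls and 33.0 and 27.1 CPM after Z325, again without overlap. The means were 3.37 ± 0.253 and 30.0 ± 4.17 CPM (SD, n = 2 each), and the log2 fold change was 3.15 (SE 0.26). Per length, its mean control level of 8.38 FPKM (sequenced fragments scaled by transcript length and library size) was above that of 78.7% of the tested lncRNAs of that line, and its level of 69.2 FPKM after Z325 was above 96.8%. In HCT116 its mean moved from 0.485 FPKM, above 33.5% of the tested lncRNAs, to 14.3 FPKM, above 95.0%. The lengths behind these values differ, 2258 exonic bases in HCT116 against an effective length of 386 to 446 bases in NCI-H716, so the FPKM levels of the lines are not comparable.

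The transcript length that RSEM assigned to LINC01564 in NCI-H716, which is weighted over its isoforms, was 649 and 644 bases in the controls and 717 and 698 bases after Z325. The groups did not overlap, but isoform counts were not at hand and no test was made. The share of all genes whose lengths separate this way was not counted. For LUCAT1 the assigned length was 1142 and 1490 bases in the controls and 1260 and 1246 bases after Z325, which overlapped.

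LUCAT1 had the lowest fold of the 3 in HCT116. Its counts there were 26 and 11 in the controls and 127 and 26 after Z325. The raw count of the second Z325 library equals that of the first control, and the difference appears only once the depth of 3434620 against 13339282 counts is taken into account. The scaled levels were 1.88 and 0.842 CPM in the controls and 9.92 and 7.44 CPM after Z325. The means were 1.36 ± 0.733 and 8.68 ± 1.75 CPM (SD, n = 2 each), with a log2 fold change of 2.67 (SE 0.54). Without control replicate 1 the log2 fold change was 3.35.

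In NCI-H716, LUCAT1 had 10 and 6 counts in the controls and 84 and 98 after Z325, or 0.756 and 0.581 CPM against 6.40 and 4.92 CPM. The means were 0.668 ± 0.124 and 5.66 ± 1.05 CPM (SD, n = 2 each), and the log2 fold change was 3.05 (SE 0.48). Both Z325 libraries were again above both controls. Per length, LUCAT1 moved from 0.650 to 5.78 FPKM, and from above 15.4% to above 72.3% of the tested lncRNAs. In HCT116 the same measure moved from 0.0841 to 0.515 FPKM, from above 4.33% to above 33.5%, but it was divided there by all 16558 exonic bases, and the 2 scales are not comparable.

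NMRAL2P was at the edge of detection in the controls. In HCT116 it had 4 and 14 counts in the controls and 198 and 39 after Z325. The scaled levels were 0.289 and 1.07 CPM against 15.5 and 11.2 CPM. The means were 0.681 ± 0.554 and 13.3 ± 3.04 CPM (SD, n = 2 each), and the log2 fold change was 4.29 (SE 0.60). The size of this fold depended on the controls, since it was 5.47 without control replicate 2 and 3.62 without control replicate 1, while the groups were apart in both cases.

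In NCI-H716, NMRAL2P had 3 and 0 counts in the controls and 60 and 42 after Z325, or 0.227 and 0 CPM against 4.57 and 2.11 CPM. A count of 0 in the second control allows up to 0.294 CPM (3 counts of its total). With 3 control counts against 102 after Z325, the ratio of pooled counts per total was 24.4, with an exact 95% binomial interval from 8.10 to 120.0. That interval covers counting error only, because amplified reads without molecular identifiers are not independent molecules. The fitted log2 fold change was 4.63 (SE 0.92), it was 3.83 without control replicate 2, and no fold is given without control replicate 1, which leaves only the control at 0. Per length, NMRAL2P in HCT116 moved from 0.259 to 4.97 FPKM and from above 18.4% to above 85.1% of the tested lncRNAs, and in NCI-H716 from 0.0700 to 2.20 FPKM and from above 0.634% to above 49.9%.

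**Figure D1:**
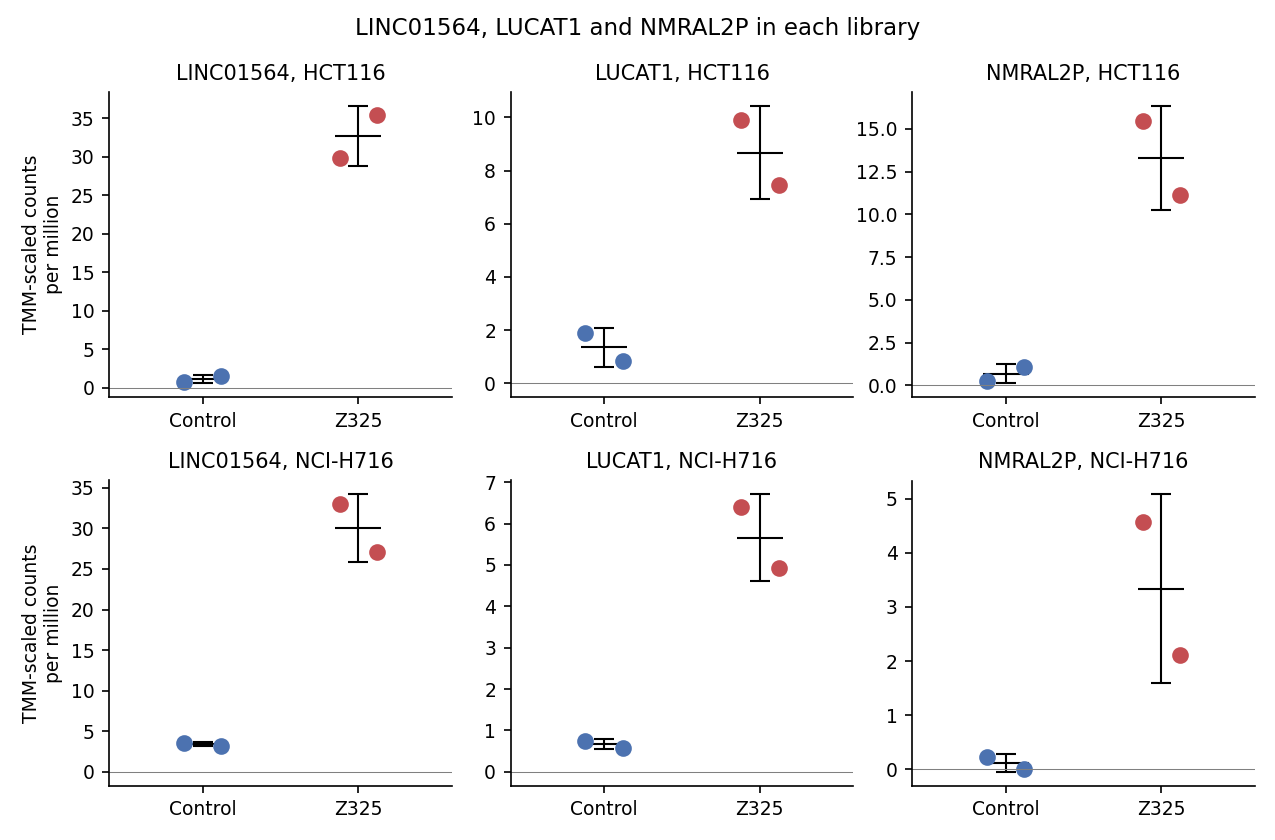
TMM-scaled CPM of LINC01564, LUCAT1 and NMRAL2P in each control (blue) and Z325 (red) library, one panel for each gene and line, with black bars for the mean ± SD of 2 libraries. The vertical axes differ between panels. In all 6 panels both Z325 libraries lie above both controls, for example at 29.9 and 35.5 against 0.723 and 1.46 for LINC01564 in HCT116.

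In all 6 pairings of gene and line, both Z325 libraries were above both controls. The same held for 24.8% of the 6491 tested genes in HCT116 and for 24.3% of the 14142 tested genes in NCI-H716, and nothing is read from the count here, since the genes were chosen for it. By log2 fold change in HCT116, LINC01564 ranked 4, NMRAL2P 6 and LUCAT1 52 among all tested genes, and 3, 5 and 22 among the 854 tested lncRNAs. In NCI-H716 the ranks were 19 for LINC01564, 6 for NMRAL2P and 23 for LUCAT1 among all tested genes, and 8, 4 and 9 among the 1892 tested lncRNAs. LUCAT1 was thus the lowest of the 3 in both lines, and in NCI-H716 its fold and that of LINC01564 differed by less than either SE. The median log2 fold change of tested lncRNAs was 0.27 in HCT116 and -0.092 in NCI-H716.

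**Figure D2:**
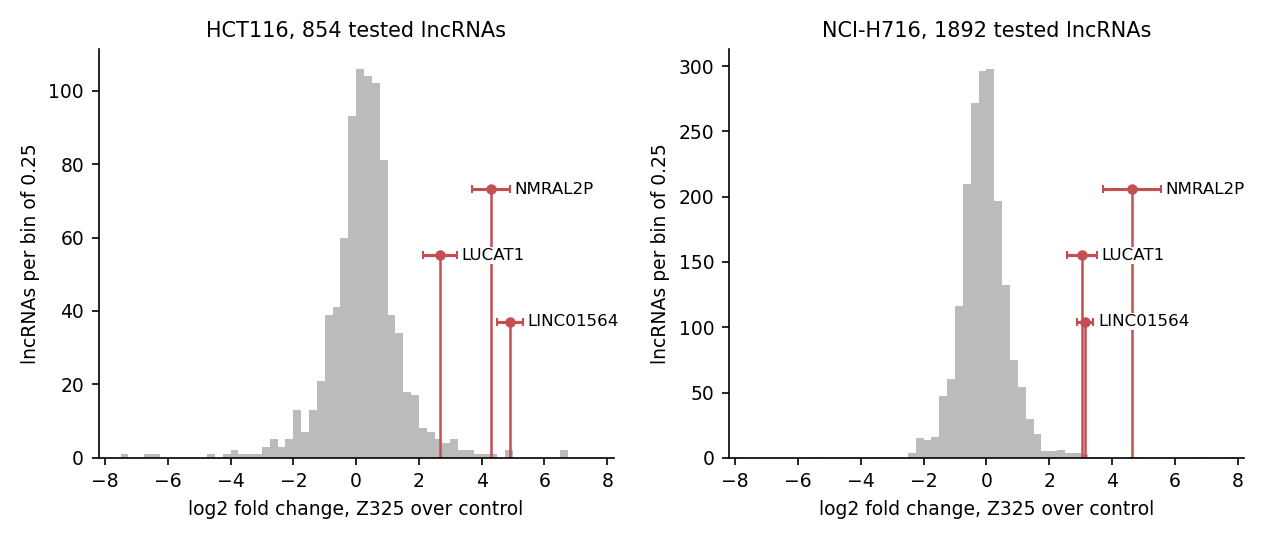
Histograms of the log2 fold change (Z325 over control, bins of 0.25) of the 854 tested lncRNAs in HCT116 and the 1892 in NCI-H716 in grey. Red lines mark the 3 members with ± SE, at heights chosen for legibility. All 3 lie in the upper tail of both distributions, with LUCAT1 at 2.67 and 3.05 closest to the bulk.

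On log2(FPKM + 1), which compresses differences between low levels, the log2 differences in HCT116 were 3.37 for LINC01564, 2.25 for NMRAL2P and 0.48 for LUCAT1. In NCI-H716 they were 2.90, 1.54 and 2.04. With a pseudocount of 0.1 the values for LUCAT1 in HCT116 and NMRAL2P in NCI-H716 were 1.76 and 3.80. The direction was the same on every scale, which follows from both Z325 libraries being above both controls. The size of the folds moved with the pseudocount.

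The surroundings of the members were not used to choose them, so the neighbours within 500 kb of a member's body were compared by the test over all genes. There were 62 such genes in the HCT116 table, 30 near LINC01564, 15 near LUCAT1 and 17 near NMRAL2P, of which 16 had enough counts to be tested and 25 had no count in any library. In NCI-H716, 13 of 60 were tested. Untested neighbours did not pass 2.03 CPM in any HCT116 library or 0.982 CPM in any NCI-H716 library. In HCT116, 2 of 16 tested neighbours rose (edgeR quasi-likelihood test, Benjamini-Hochberg adjusted p under 0.05) and none fell, where 2.83% of all tested genes rose and 2.94% fell. In NCI-H716, 2 of 13 rose and none fell, where 0.403% of all tested genes rose and 0.099% fell. The median log2 fold change of the tested neighbours was 0.097 in HCT116 and 0.22 in NCI-H716, beside -0.027 and -0.0062 over all tested genes.

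ARRDC3, an alpha-arrestin that takes part in the trafficking of membrane receptors, is the nearest tested gene beyond the LUCAT1 start. It lies on the same reverse strand at chr5:91368631-91383317, and its end is 54.1 kb from LUCAT1. In HCT116 its level was 131 and 121 CPM in the controls and 516 and 512 CPM after Z325. The groups were far apart, with a log2 fold change of 2.03 (SE 0.13, edgeR adjusted p = 0.000486). In NCI-H716 it was 40.2 and 40.5 CPM in the controls and 90.5 and 76.5 CPM after Z325, a log2 fold change of 1.05 (SE 0.18, edgeR adjusted p = 0.0316). The adjusted p in NCI-H716 was 0.127 without control replicate 1 and 0.0615 without control replicate 2, at log2 fold changes of 1.04 and 1.07. It was 0.225 on log2(FPKM + 1) with limma, and 6 of the 9 alternatives without a block passed, with adjusted p from 4.32e-05 to 0.225. The 2 windows at ARRDC3 starts held neither motif.

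The other tested genes around LUCAT1 were few. ADGRV1, a large adhesion G protein-coupled receptor whose body overlaps the far end of LUCAT1 on the opposite strand, had log2 fold changes of 0.15 (SE 0.72, edgeR adjusted p = 0.932) in HCT116 and -0.053 (SE 0.29, adjusted p = 0.945) in NCI-H716. ARRDC3-AS1, which runs antisense to ARRDC3, had 4 and 1 counts in the HCT116 controls and 15 and 4 after Z325 (log2 fold change 2.58, SE 1.17, edgeR adjusted p = 0.224). It is named after its values were seen. No tested neighbour lay within 500 kb on the other side of LUCAT1.

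The start of LINC01564 lies inside the annotated bodies of GCLC and of the unnamed lncRNA ENSG00000231683, both on the opposite strand. GCLC (chr6:53497341-53616970) encodes the catalytic subunit of glutamate-cysteine ligase, which carries out the rate-limiting step of glutathione synthesis. Its outermost GENCODE start is 256 bases beyond the commonest LINC01564 start, so that the start regions of the genes overlap on opposite strands, whereas its RefSeq start, position 53545101, is 71613 bases away. ENSG00000231683 (chr6:53561289-53617171) starts 457 bases beyond the LINC01564 start. Neither shares an exonic base with LINC01564, but the library method keeps no strand, so intronic reads of one gene and reads of another on the other strand cannot be told apart.

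**Figure D3:**
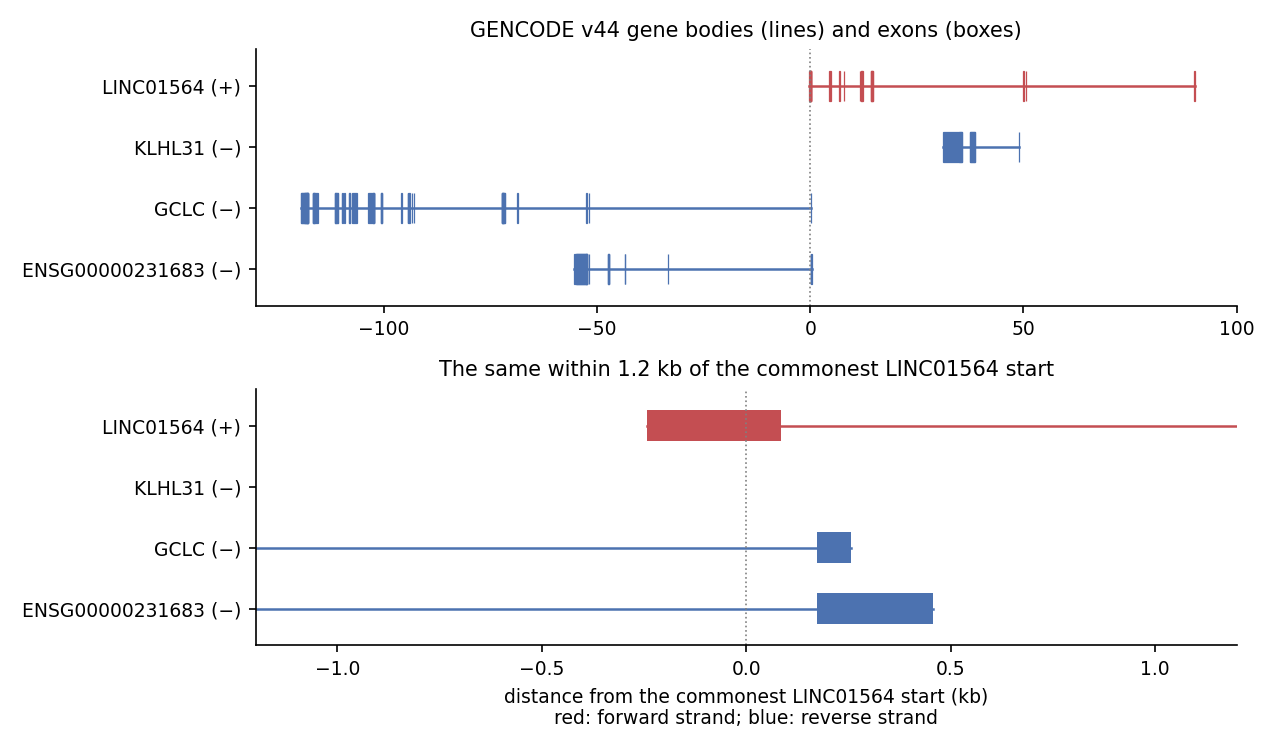
Map of LINC01564, KLHL31, GCLC and ENSG00000231683 by distance in kb from the commonest LINC01564 start (dotted line), with gene bodies as lines and exons of all GENCODE v44 transcripts as boxes, red on the forward and blue on the reverse strand. The lower panel enlarges the start, where the first exons of GCLC and ENSG00000231683 begin 256 and 457 bases past the line on the opposite strand and share no base with a LINC01564 exon.

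GCLC rose in HCT116. Its level was 46.7 and 44.04 CPM in the controls and 126 and 177 CPM after Z325, a log2 fold change of 1.73 (SE 0.21, edgeR adjusted p = 0.00498). The adjusted p was 0.0527 without control replicate 1 and 0.0877 without control replicate 2, at log2 fold changes of 1.77 and 1.69. On log2(FPKM + 1) with limma it did not pass either, and over the 9 alternatives without a block the adjusted p ran from 6.65e-15 to 0.0877. In NCI-H716 the groups did not overlap either, at 53.3 and 60.7 CPM against 104 and 105 CPM, but the log2 fold change of 0.88 (SE 0.17) did not pass (edgeR adjusted p = 0.0618). Among the alternatives without a block, it passed there with DESeq2 (adjusted p = 0.00273) and with no filter on low counts (edgeR adjusted p = 0.000716). It did not pass with library size alone (edgeR adjusted p = 0.0546), a minimum of 10 counts in every library (0.0516) or limma on log2(FPKM + 1) (0.237). Leaving out 1 library, its log2 fold change there ran from 0.79 to 0.98. The GCLC window at its RefSeq start, chr6:53545052-53545351, held neither motif.

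ENSG00000231683 rose in NCI-H716, from 3.32 and 5.61 CPM in the controls to 17.7 and 24.1 CPM after Z325. The log2 fold change was 2.24 (SE 0.31, edgeR adjusted p = 0.0131). It passed in 8 of 9 alternatives, but not on log2(FPKM + 1) with limma, and the adjusted p ran from 4.1e-11 to 0.319. Its exons share bases with those of GCLC, so its counts are uncertain. In HCT116 it had 0 and 2 counts in the controls and 12 and 0 after Z325 and was not tested. KLHL31, a BTB-Kelch protein gene that lies within the span of LINC01564 on the opposite strand (chr6:53647916-53665756), is named after its values were seen. It had 1.73 and 1.23 CPM in the HCT116 controls and 5.78 and 6.01 CPM after Z325, and its log2 fold change of 1.98 (SE 0.53) did not pass (edgeR adjusted p = 0.0669). It passed with DESeq2 (adjusted p = 0.0485), with a minimum of 10 counts in every library (edgeR adjusted p = 0.0370) and with no filter (0.0417). It did not pass with library size alone (edgeR adjusted p = 0.0716) or with limma on log2(FPKM + 1) (0.0887). Leaving out 1 library, its log2 fold change in HCT116 ran from 1.75 to 2.25. In NCI-H716 its log2 fold change was 0.15 (SE 0.57, adjusted p = 0.918).

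Genes farther from LINC01564 did not pass the test. ELOVL5, a fatty acid elongase 267 kb to the left, had log2 fold changes of -0.10 (SE 0.21, edgeR adjusted p = 0.827) in HCT116 and 0.22 (SE 0.19, adjusted p = 0.591) in NCI-H716. To the right, ENSG00000227885 had a log2 fold change of -0.93 (SE 0.66, adjusted p = 0.442) in HCT116, and LRRC1, a leucine-rich repeat scaffold protein, had 0.28 (SE 0.38, adjusted p = 0.751) in NCI-H716.

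Around NMRAL2P, 8 neighbours were tested in HCT116 and 6 in NCI-H716, and none passed in either line with edgeR (3 and 0 at an unadjusted p under 0.05). The nearest, 21.8 kb to the left, was TRA2B, a splicing regulator, with log2 fold changes of -0.45 (SE 0.13, adjusted p = 0.0842) in HCT116 and 0.096 (SE 0.16, adjusted p = 0.805) in NCI-H716. The window at its start held 2 antioxidant response element cores and no AP-1 site. On the other side ETV5, an ETS factor that is transcribed in response to FGFR and MAPK signals, had 0.40 (SE 0.17, adjusted p = 0.204) and 0.15 (SE 0.17, adjusted p = 0.686). Beside the log2 fold changes of 4.29 and 4.63 of NMRAL2P, these 2 nearest tested genes had values between -0.45 and 0.40. All tested neighbours ran from -0.45 to 1.02 in HCT116 and from 0.056 to 0.40 in NCI-H716. The highest was LIPH in HCT116, 407 kb to the left and named after its values were seen. It had 8.81 and 13.4 CPM in the controls and 19.4 and 26.0 CPM after Z325 (SE 0.34, edgeR adjusted p = 0.112). NMRAL1, the parent gene of the pseudogene, was read in NCI-H716 only, where it had 19.8 and 11.2 CPM in the controls and 10.9 and 10.9 CPM after Z325 (log2 fold change -0.51, SE 0.29, edgeR adjusted p = 0.401).

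**Figure D4:**
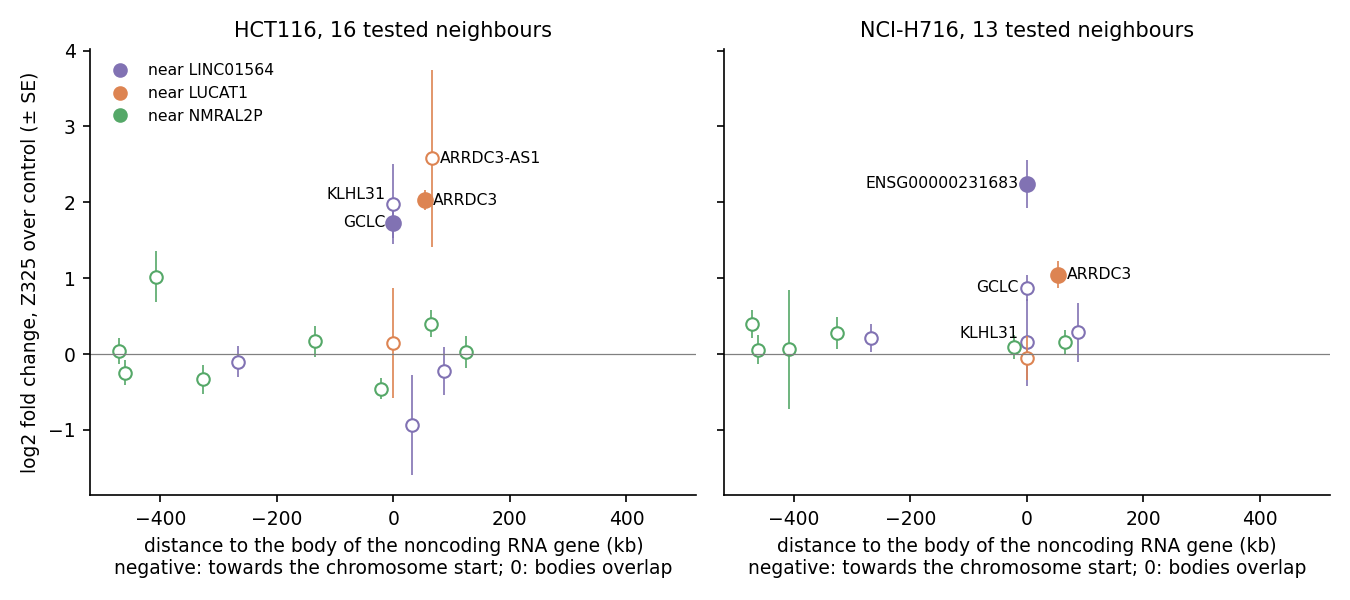
Log2 fold change ± SE (Z325 over control) of each tested neighbour within 500 kb against its distance in kb from the body of the member, coloured by member, with filled points at an edgeR adjusted p under 0.05. The filled points are ARRDC3 and GCLC in HCT116 and ARRDC3 and ENSG00000231683 in NCI-H716, and all 4 lie at 0 or 54.1 kb.

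Whether neighbours changed differently in the lines was tested by the interaction of line and treatment over all 8 libraries. None of 17 neighbours passed with edgeR, where 0.0654% of 7642 genes did, and 6 were at an unadjusted p under 0.05. The smallest adjusted p was that of ARRDC3, whose log2 fold change was lower in NCI-H716 (difference -0.99, SE 0.22, adjusted p = 0.0981). For GCLC the difference was -0.87 (SE 0.26, adjusted p = 0.196). Differences of both signs occurred. DGKG, named after its values were seen, went the other way (3.26, SE 0.92, adjusted p = 0.185), but had 0.0756 and 0 CPM in the NCI-H716 controls.

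The genes whose pattern was most like that of each member were found among the 5014 genes tested in both lines, as those with the smallest root mean square difference, over the 8 libraries, of log2(CPM + 1) minus the mean of the line's controls. SLC7A11, the cystine transporter that feeds glutathione synthesis, came first for NMRAL2P (0.471), the second for LINC01564 (0.782) and the third for LUCAT1 (0.393). GCLM, the modifier subunit of the ligase that GCLC belongs to, came first for LUCAT1 (0.297) and the fifth for NMRAL2P (0.750). Between the members the difference was 0.639 for LUCAT1 and NMRAL2P, 0.686 for LINC01564 and NMRAL2P and 1.12 for LINC01564 and LUCAT1. Neither other member was among the 5 nearest of LUCAT1. Part of the likeness between members follows from their choice for a rise in these same libraries. NIBAN1, a stress-responsive protein, was among the 5 nearest of all 3 members. The remaining places went to DNAJB4, a heat shock cochaperone, and ARRDC3 for LUCAT1 (0.392 and 0.510) and to AKR1B10, an aldo-keto reductase, for LINC01564 (1.10).

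This measure compresses differences between low levels. The log2 fold changes of SLC7A11, 2.66 in HCT116 and 2.25 in NCI-H716, were lower than those of NMRAL2P, 4.29 and 4.63. With a pseudocount of 0.1 in place of 1, chosen after seeing the data, 4 of the 5 genes remained for NMRAL2P, 3 for LUCAT1 and 4 for LINC01564. SLC7A11 then ranked 5 for NMRAL2P, behind LINC01564, NIBAN1, LUCAT1 and AKR1B10, and ranked 1 for LUCAT1. The genes that left the first 5 were GCLM for NMRAL2P, DNAJB4 and ARRDC3 for LUCAT1 and AKR1B10 for LINC01564.

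The levels of these genes were of very different size. SLC7A11 stood at 136 and 118 CPM in the HCT116 controls and at 744 and 857 CPM after Z325. NIBAN1 stood at 0.723 and 2.22 CPM against 7.96 and 9.72 CPM in the same libraries, and at 0.831 and 0.290 against 3.35 and 6.17 CPM in NCI-H716. AKR1B10 stood at 7.01 and 8.42 against 56.3 and 45.8 CPM in HCT116 and 0.227 and 0.871 against 39.3 and 24.1 CPM in NCI-H716, though the difference in its log2 fold change of 3.17 (SE 0.60) did not pass (edgeR adjusted p = 0.0724).

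Protein-coding NRF2 targets were then described as a group of 40 genes, of which 13 are in the HCT116 table and all 40 in the NCI-H716 tables. In HCT116, 12 were tested, 6 rose and none fell, where 2.83% of all tested genes rose and 2.94% fell, and the median log2 fold change was 1.06. The 6 were SLC7A11, GCLM, AKR1B10, ME1, GCLC and UGDH. Of the 12, 10 had a log2 fold change above 0 and 2 below. At an unadjusted edgeR p under 0.05, 7 were higher and 1 was lower. SLC7A11 rose by a log2 fold change of 2.66 (SE 0.15, edgeR adjusted p = 0.000331). GCLM rose by 1.79 (SE 0.14, adjusted p = 0.00113) and AKR1B10 by 2.73 (SE 0.27, adjusted p = 0.00202), and ME1, the cytosolic malic enzyme that yields NADPH, rose by 1.24 (SE 0.13, adjusted p = 0.00288). UGDH, which makes UDP-glucuronate, rose by 0.88 (SE 0.14, adjusted p = 0.0134), and its adjusted p was 0.132 without control replicate 1 and 0.0949 without control replicate 2.

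In NCI-H716, 38 of the NRF2 targets were tested, 17 rose and none fell, where 0.403% of all tested genes rose and 0.099% fell, and the median log2 fold change was 1.10. The aldo-keto reductases AKR1C2 and AKR1C1, which reduce aldehydes and ketones with NADPH, rose by 3.70 (SE 0.18, edgeR adjusted p = 1.55e-05) and 3.08 (SE 0.18, adjusted p = 4.22e-05), but as close paralogs their reads may have been split uncertainly. GPX2, the intestinal glutathione peroxidase, rose by 2.78 (SE 0.20, adjusted p = 0.00025). AKR1B10 rose by 5.91 (SE 0.47, adjusted p = 0.000413), SLC7A11 by 2.25 (SE 0.18, adjusted p = 0.000413) and TRIM16L by 3.17 (SE 0.28, adjusted p = 0.000815). The list was drawn up with results of these data known, so its direction is not independent evidence.

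A list of 50 other lncRNAs and host genes that are known to respond to stress, without the 3 members, was described in the same way. In HCT116, 13 were tested, 1 rose and 1 fell, with a median log2 fold change of 0.41, and among all tested lncRNAs 2.22% rose and 0.468% fell. GAS5, a host of small nucleolar RNAs that accumulates when growth is arrested, rose from 499 ± 0.957 to 1081 ± 169 CPM (SD, n = 2 each, log2 fold change 1.12, SE 0.14, edgeR adjusted p = 0.00674). DANCR, a lncRNA linked to the undifferentiated state, fell by 1.06 on the log2 scale (SE 0.21, adjusted p = 0.0255), from 141 ± 3.68 to 67.3 ± 17.9 CPM. Neither call held without control replicate 1 (adjusted p = 0.0777 and 0.154) or without control replicate 2 (0.111 and 0.221), at log2 fold changes of 1.11 in both cases for GAS5 and of -1.09 and -1.04 for DANCR.

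In NCI-H716, 31 of these lncRNAs were tested and none passed with edgeR without a block. At an unadjusted p under 0.05, 8 were higher and 5 lower. GAS5 and DANCR had the same directions as in HCT116. Their log2 fold changes were 0.52 (SE 0.16, edgeR adjusted p = 0.170) and -0.58 (SE 0.16, adjusted p = 0.145). DESeq2 called 4, and edgeR with the replicate number as a block called 15. Among all tested lncRNAs of this line 0.264% rose and 0.159% fell. The median log2 fold change of the list was 0.064. The 3 members, between 2.67 and 4.90 in HCT116 and between 3.05 and 4.63 in NCI-H716, were above every tested gene of this list in both lines, which follows in part from how they were chosen.

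**Figure D5:**
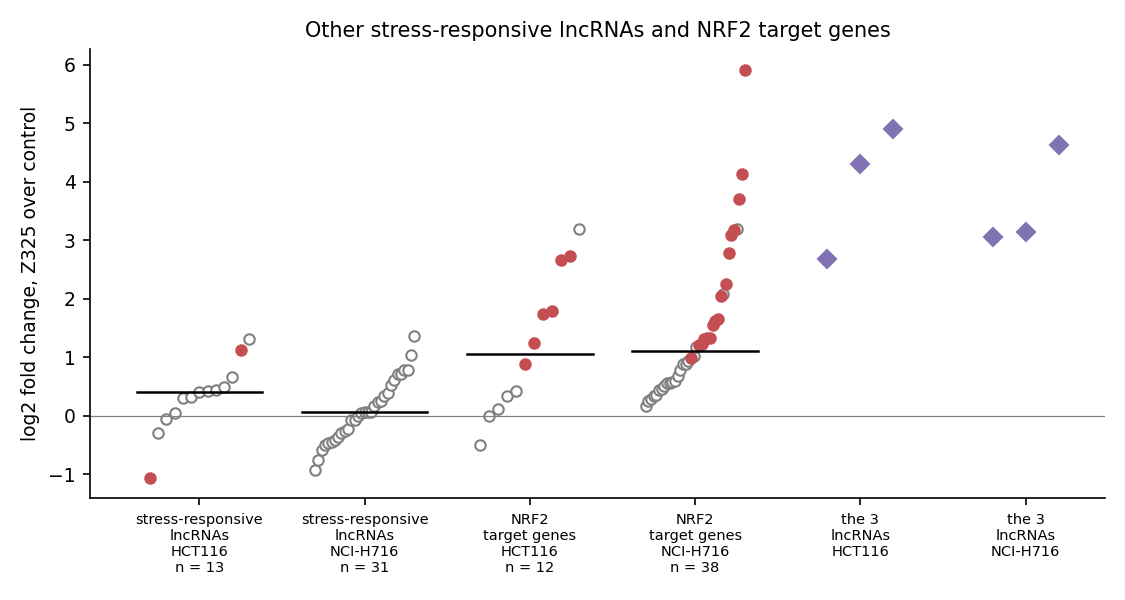
Log2 fold change (Z325 over control) of each tested gene of the list of other stress-responsive lncRNAs and of the NRF2 target list, by line, with filled points at an edgeR adjusted p under 0.05 and bars at the medians of 0.41, 0.064, 1.06 and 1.10 from left to right. Purple diamonds show LINC01564, LUCAT1 and NMRAL2P, which lie above all genes of the first list. In NCI-H716 they lie within the range of the second list, where AKR1B10 reached 5.91.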

How the data were processed

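RNA of HCT116 and NCI-H716 cells, control or Z325, was amplified by a full-length SMART-Seq2 type method that keeps no strand and sequenced in 8 libraries. For HCT116 the deposited table holds counts per gene in the layout of featureCounts, and the submitters' processing notes name Bowtie2 2.5.0, featureCounts and hg38. For NCI-H716 the authors deposited RSEM tables with expected counts, TPM and FPKM, and the paper's methods name trimming, STAR and RSEM on GRCh38, so the sources differ on the aligner. The FPKM of HCT116 was computed here from the deposited counts and the exon length of each gene. Expected counts were rounded to whole numbers. From the counts of HCT116, 4 broken lines were left out. Gene names of HCT116 and the positions of members and neighbours came from its deposited table, so neighbours are limited to the genes listed there. GENCODE v44 gave the gene types and the names of 62666 of 63241 NCI-H716 gene IDs. It placed 27702 of 28043 HCT116 genes at the same position.

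Each line was fitted alone with edgeR 4.0.16 (R 4.3.3): TMM factors, filterByExpr, the quasi-likelihood test without a block and Benjamini-Hochberg adjustment over all tested genes, with calls at an adjusted p under 0.05. The spread between libraries, as a common biological coefficient of variation, came to 0.245 (HCT116) and 0.203 (NCI-H716). The difference between lines was tested by the interaction over genes in both tables. DESeq2 1.42.0, limma 3.58.1 on log2(FPKM + 1), library size alone, a minimum of 10 counts, no filter, the replicate number as a block and leaving out each library were alternatives. The tests were checked on simulated counts. The members and gene lists were chosen with earlier results of these data known. Genes named in the text were the members, neighbours within 500 kb that passed in either line, the nearest tested neighbour on each side, the 5 genes most like each member, up to 6 called genes with the smallest adjusted p per list and line, and NMRAL1. The study's methods compare FPKM between groups, and a count model was used here because counts are deposited.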

Additional observations from a re-analysis of the deposited data

How the results depend on the processing

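The rise of all 3 members kept its direction in both lines under every alternative that gave a fold. Both Z325 libraries were above both controls for each member, so the direction was fixed beforehand and is no test. Leaving out 1 library, the log2 fold change of LINC01564 ran from 4.47 to 5.46 in HCT116 and from 3.01 to 3.29 in NCI-H716, that of LUCAT1 from 2.20 to 3.35 and from 2.86 to 3.26, and that of NMRAL2P from 3.62 to 5.47 and from 3.83 to 5.10. The genes most like each member were the same 5 of 5 with library size alone, and 3 to 4 of 5 with a pseudocount of 0.1, chosen after seeing the data. The main counts of called genes were 375 in HCT116 and 71 in NCI-H716. With no filter they were 683 and 787, with DESeq2 759 and 364, with limma on log2(FPKM + 1) 47 and 6, and in HCT116 with a minimum of 10 counts 615. Called neighbours were 1 and 0 with limma. The stress-responsive lncRNAs called were 1 in HCT116 with limma, and 6 with no filter and 4 with DESeq2 in NCI-H716, where limma called 4 NRF2 targets. Leaving out 1 library gave 23 to 1076 called genes in HCT116 and 62 to 1398 in NCI-H716, 1 to 3 called neighbours in each line, and 0 to 4 and 0 to 7 stress-responsive lncRNAs. In these fits the group with 1 library left is assumed to vary like the others. ADGRV1 changed sign with limma, to -0.00046 in HCT116 and 0.16 in NCI-H716. Leaving out 1 library, it ran from -0.93 to 0.70 and from -0.37 to 0.35, ELOVL5 in HCT116 from -0.30 to 0.11, KLHL31 in NCI-H716 from -0.19 to 0.47, and LRRC1 from -0.49 to 0.034 and from -0.11 to 0.81. With limma, DANCR and UGDH in HCT116 and SLC7A11 and TRIM16L in NCI-H716 did not pass. The cause of these shifts was not tested.

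The labels number the replicates but do not say whether equal numbers pair libraries, and the main fits took no pairing. The correlation of same-numbered deviations was -0.022 in HCT116 and 0.29 in NCI-H716. With 2 pairs each, these values cannot settle whether the libraries are paired, and calls in NCI-H716 depended strongly on this choice. With the replicate block, 2397 genes, 4 neighbours, 15 stress-responsive lncRNAs and 29 NRF2 targets were called in NCI-H716, and 381, 2, 2 and 6 in HCT116.

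Depth limits the lowest levels. NMRAL2P had 3 and 0 control counts in NCI-H716, and in the shallow HCT116 library a count of 0 allows up to 0.873 CPM (3 counts).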
